A study of Homo sapiens with 6 samples.

Results

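DNA mismatch repair genes were followed by RNA sequencing in the human ovarian cancer line A2780, an established culture line, after exposure to SCR-6920 or to its solvent DMSO. The group was defined by gene symbol as MSH6, MSH3, PMS2, PMS1 and MLH3, and all 5 were found among the 24054 genes of the deposited count table. The SCR-6920 group held 3 samples treated at 1 µM for 48 h, and the control group held 3 samples given DMSO for 48 h. All samples were labelled wild type for genotype and came from the same line. The series title gives SCR-6920 as a PRMT5 inhibitor; PRMT5 is an arginine methyltransferase that acts on histones and splicing proteins. The labels do not say that replicates were separate cultures, so p-values measure only the spread between these samples, which may be technical.

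Mismatch repair removes bases that DNA polymerases misinsert and small loops left by slippage on repeats. MutS proteins find the error: MSH6 and MSH3 each bind a common MutS partner, the MSH6 pair reading single mismatches and short loops and the MSH3 pair longer loops. MutL proteins act next: PMS2 carries the endonuclease that nicks the new strand, MLH3 takes part in meiotic crossing over and repair of some loops, and PMS1 pairs with the same MutL partner but lacks the endonuclease. The strand is then removed by the exonuclease EXO1 and refilled by DNA polymerase delta with its clamp PCNA and the clamp loader RFC. Loss of this repair is a known cause of microsatellite instability, including in ovarian and endometrial cancer.

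The starts of the genes that passed the test below are shown first, as a description of their letters. Each sequence is the RefSeq window of 250 bases before and 50 bases after the most upstream annotated start. Capitals mark TTTGGCGC, TTTCCCGC or TTTCGCGC (letters bound by E2F factors) in MSH6 and MSH3, CCAAT in PMS1 and PMS2, and TGACGTCA (the cyclic AMP response element) in PMS2. Which letters to mark was chosen gene by gene, and the CCAAT of MSH6 is left in lower case.
MSH6 promoter, GRCh38.p14 chr2:47782895-47783194, plus strand: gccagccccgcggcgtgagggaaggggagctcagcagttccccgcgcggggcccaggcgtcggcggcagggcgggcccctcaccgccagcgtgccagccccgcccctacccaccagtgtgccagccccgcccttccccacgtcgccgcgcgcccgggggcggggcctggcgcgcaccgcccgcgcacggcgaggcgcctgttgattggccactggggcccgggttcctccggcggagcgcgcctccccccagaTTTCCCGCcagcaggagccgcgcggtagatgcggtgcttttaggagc
MSH3 promoter, GRCh38.p14 chr5:80654402-80654701, plus strand: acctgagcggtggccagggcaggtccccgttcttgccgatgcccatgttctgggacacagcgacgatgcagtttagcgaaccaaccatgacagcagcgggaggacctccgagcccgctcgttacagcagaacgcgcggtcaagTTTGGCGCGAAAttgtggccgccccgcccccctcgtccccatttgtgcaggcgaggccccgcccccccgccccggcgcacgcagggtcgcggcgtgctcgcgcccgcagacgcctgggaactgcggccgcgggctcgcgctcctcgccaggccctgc
PMS1 promoter, GRCh38.p14 chr2:189784200-189784499, plus strand: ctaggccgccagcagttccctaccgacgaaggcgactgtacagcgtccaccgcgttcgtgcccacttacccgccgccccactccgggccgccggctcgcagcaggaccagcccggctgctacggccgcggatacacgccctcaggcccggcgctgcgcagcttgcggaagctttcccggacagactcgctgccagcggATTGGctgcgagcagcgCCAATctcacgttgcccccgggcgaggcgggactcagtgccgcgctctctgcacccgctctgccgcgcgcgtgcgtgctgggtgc
PMS2 promoter, GRCh38.p14 chr7:6009057-6009356, minus strand: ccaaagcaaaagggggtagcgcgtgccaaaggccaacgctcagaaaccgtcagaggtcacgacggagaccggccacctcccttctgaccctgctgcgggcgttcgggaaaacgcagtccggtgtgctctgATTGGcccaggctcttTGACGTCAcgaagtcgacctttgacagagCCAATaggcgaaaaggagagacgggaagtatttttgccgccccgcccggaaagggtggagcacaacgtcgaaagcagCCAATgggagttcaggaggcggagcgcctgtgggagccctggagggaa
All 5 members matched a RefSeq promoter, and both strands were searched. An E2F sequence lay in 2.79% of 27305 promoter windows, and it was found in those of MSH6 and MSH3 and not in those of PMS1, PMS2 or MLH3. In the MSH6 window TTTCCCGC began 4 bases into the transcript. In the MSH3 window TTTGGCGC and TTTCGCGC, the latter on the opposite strand, overlapped and together ran from 107 to 96 bases before the start. CCAAT was found in 35.7% of windows, with 2 matches in PMS1, 3 in PMS2, 1 in MSH6 and none in MSH3 or MLH3. TGACGTCA was found in 1.97% of windows and, of the members, in PMS2. The GC box GGGCGG was found in 44.5% of windows and in those of MSH6, MSH3, PMS2 and PMS1. The MLH3 window, not shown, held none of these sequences. These matches describe the letters and do not show that a factor was bound. Their part in the changes of the members was not tested.

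Levels per transcript length differed widely among the members. On the FPKM scale (counts per gene length and per library total), MSH6 stood at 68.7 ± 3.8 in DMSO samples (SD, n = 3). By its mean over all 6 samples, MSH6 was above 93.7% of tested genes. PMS1 at 7.24 ± 0.53 FPKM, PMS2 at 7.07 ± 0.51 and MSH3 at 6.78 ± 0.13 had ranges that overlapped in DMSO samples. MLH3 was lowest, at 1.36 ± 0.25 FPKM. After SCR-6920 the order was MSH6 (60.1 ± 1.0 FPKM), PMS2 (7.86 ± 0.42), MSH3 (5.86 ± 0.58), PMS1 (5.13 ± 0.12) and MLH3 (1.43 ± 0.02). In SCR-6920 samples the lowest PMS2 value, 7.55 FPKM, was above the highest MSH3 value, 6.34 FPKM, while MSH3 and PMS1 overlapped. This order was described without a test.

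**Figure D1:**
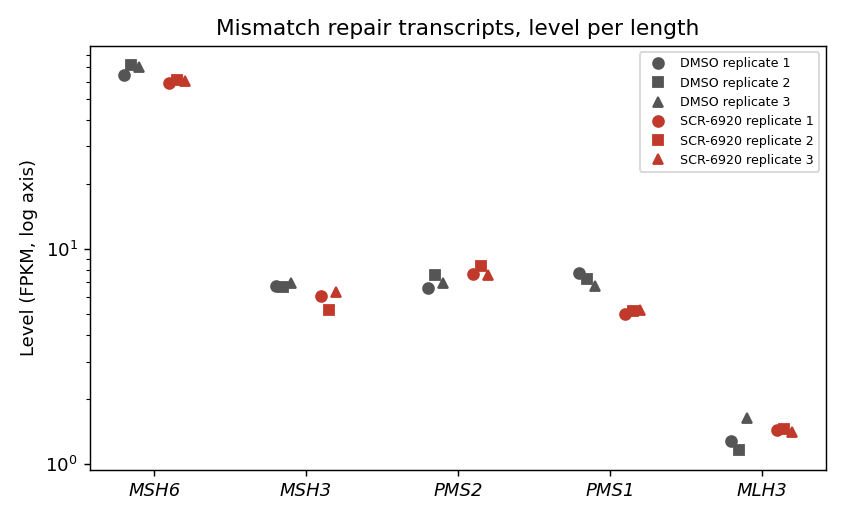
FPKM level (log axis) of each member in each of the 6 samples; grey marks are DMSO, red marks SCR-6920, and the symbol gives the replicate. MSH6 lies between 59.0 and 71.6 FPKM, MSH3, PMS2 and PMS1 between 5.00 and 8.33 FPKM, and MLH3 between 1.16 and 1.63 FPKM.

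Treated and control samples were compared to find transcripts that change when PRMT5 is inhibited. PMS1 fell to 0.713-fold, MSH6 to 0.882-fold and MSH3 to 0.872-fold, PMS2 rose 1.12-fold, and MLH3 did not pass the test. By edgeR's quasi-likelihood test at a Benjamini-Hochberg adjusted p under 0.05, 3 of the 5 members were lower and 1 was higher, against 21.3% lower and 20.6% higher among all 14233 genes tested. The median log2 fold change was -0.18 over the members and -0.002 over all tested genes. With 42% of tested genes called in either direction, a call by itself did not set a member apart. The groups did not overlap for 3 members, MSH6, MSH3 and PMS1, against 50.6% of all tested genes. All 5 members passed the filter on low counts.

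**Figure D2:**
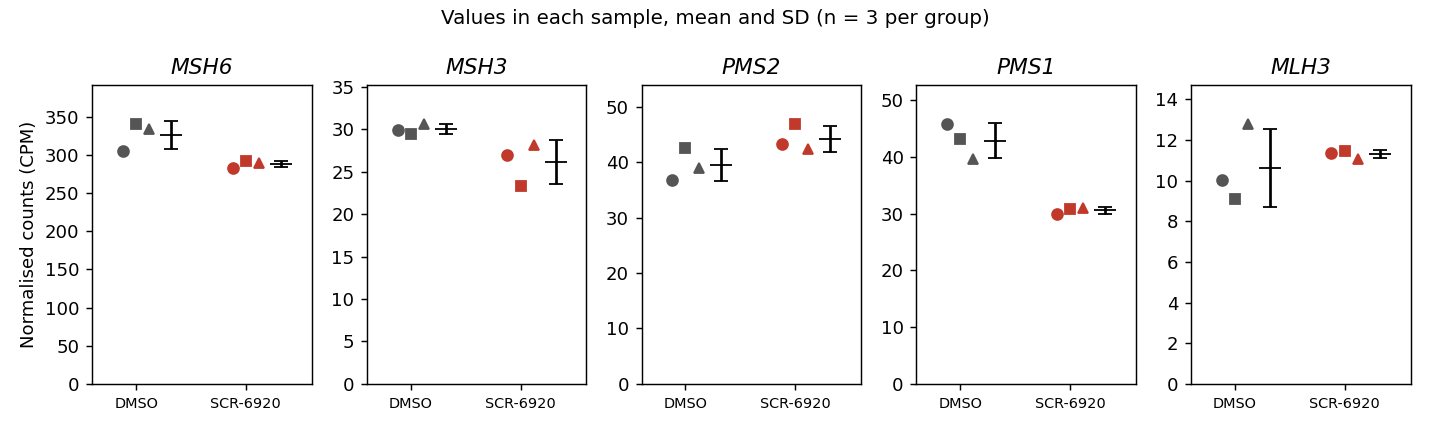
Normalised counts (CPM, linear axes from 0) of each member in each sample, with the group mean and SD beside the points (n = 3 per group). The groups do not overlap for MSH6, MSH3 and PMS1, and overlap for PMS2 and MLH3.

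MSH6, the mismatch-reading MutS subunit, had 306, 341 and 333 CPM (counts relative to the scaled library total) in DMSO replicates 1 to 3 and 284, 292 and 289 CPM in SCR-6920 replicates 1 to 3. Every treated sample was below every control, and the lowest control, replicate 1, lay closest to the treated samples. These values rested on 10819 to 13363 counts per sample. The log2 fold change was -0.18 ± 0.03 (SE, 95% interval -0.25 to -0.11, adjusted p = 5.73e-05, edgeR). The coefficient of variation was 5.66% among controls and 1.45% among treated samples. A larger absolute log2 change was seen in 52.9% of tested genes.

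MSH3, the loop-reading MutS subunit, had 29.9, 29.5 and 30.6 CPM in DMSO samples and 27.0, 23.3 and 28.2 CPM in SCR-6920 samples. The groups did not overlap, but treated replicate 2 lay well below the other treated samples. The log2 fold change was -0.20 ± 0.07 (SE, 95% interval -0.35 to -0.05, adjusted p = 0.0269, edgeR). Without SCR-6920 replicate 2 it was -0.12 with an adjusted p of 0.204, and without DMSO replicate 3 the adjusted p was 0.0712. DESeq2 gave an adjusted p of 0.052. MSH3 rested on 895 to 1222 counts per sample, and the counting error per sample was 2.90% in controls and 3.16% in treated samples. The observed coefficient of variation was 1.93% among controls and 9.75% among treated samples.

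The abundance of MSH6 transcripts relative to MSH3 did not differ beyond the spread of the samples. The ratio of their FPKM values was 9.52, 10.8 and 10.1 in DMSO samples and 9.77, 11.7 and 9.55 in SCR-6920 samples. The mean log2 ratio differed by 0.02 (exact permutation test, two-sided, p = 0.80, adjusted p = 0.80 over 3 ratios), within the spread of 0.09 and 0.16 (SD of the log2 ratio in DMSO and SCR-6920 samples). This does not show that the ratio was equal, since 3 samples against 3 cannot give a p below 0.10.

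PMS1, the MutL protein without endonuclease activity, had the largest change of the members. It had 45.8, 43.1 and 39.6 CPM in DMSO samples and 29.9, 30.8 and 31.0 CPM in SCR-6920 samples. The treated samples lay within a narrow range below all controls, and among the controls replicate 3 was lowest. The log2 fold change was -0.49 ± 0.06 (SE, 95% interval -0.62 to -0.36, adjusted p = 1.32e-07, edgeR). Only 17.7% of tested genes had a larger absolute log2 change. The call held in all 15 alternatives, with log2 fold changes from -0.54 to -0.43.

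PMS2, the endonuclease subunit, had 36.8, 42.5 and 39.0 CPM in DMSO samples and 43.4, 46.9 and 42.4 CPM in SCR-6920 samples. The groups overlapped: DMSO replicate 2 was just above SCR-6920 replicate 3. The log2 fold change was 0.16 ± 0.06 (SE, 95% interval 0.04 to 0.29, adjusted p = 0.0296, edgeR). Leaving out control replicate 1 (adjusted p = 0.13) or 3 (0.0693), or treated replicate 1 (0.0551) or 2 (0.203), ended this call, as did DESeq2 (0.0545), and it held in 7 of 15 alternatives. PMS2 also has near-identical pseudogene copies on chromosome 7. In GENCODE 29 transcripts, 17.4% of the 100-base windows of the PMS2 coding transcript were present without a mismatch in PMS2CL, and none of the windows of the other 4 members was found in another gene. Neither PMS2CL nor any PMS2P gene is a row of the table analysed here, so how reads from the shared stretch were assigned is unknown, and the PMS2 value is uncertain to that extent.

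MLH3, the MutL protein of meiotic crossing over, had 10.0, 9.08 and 12.8 CPM in DMSO samples and 11.4, 11.4 and 11.1 CPM in SCR-6920 samples. The treated samples fell inside the range of the controls, which DMSO replicate 3 widened. The log2 fold change was 0.09 ± 0.12 (SE, 95% interval -0.15 to 0.32, adjusted p = 0.584, edgeR). The coefficient of variation was 18.1% among controls and 1.79% among treated samples, against 4.87% and 4.81% from counting alone. Without DMSO replicate 3 the log2 fold change was 0.24 (adjusted p = 0.118), and without DMSO replicate 2 it was -0.01 (adjusted p = 0.945). The interval holds 0, so these samples did not settle whether MLH3 fell, rose or stayed within it.

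The ratio of the MutL transcripts PMS2 and PMS1 did not overlap between the groups. PMS2 over PMS1 on the FPKM scale was 0.852, 1.05 and 1.04 in DMSO samples and 1.54, 1.61 and 1.45 in SCR-6920 samples. The mean log2 ratio was higher by 0.65 after SCR-6920, a 1.57-fold difference (SD of the log2 ratio 0.17 and 0.08, n = 3 per group; exact permutation test, two-sided, p = 0.10, the smallest this design allows, adjusted p = 0.30 over 3 ratios). Without 1 library the difference stayed between 0.55 and 0.70. PMS1 alone did not overlap between the groups, with a log2 fold change of -0.49 by edgeR, while PMS2 overlapped, with 0.16. The ratio thus largely repeats the fall of PMS1, and the limits given above for PMS2 and its copies apply to it. PMS2 over MLH3 was 5.15, 6.57 and 4.28 in DMSO samples and 5.35, 5.75 and 5.36 in SCR-6920 samples, and the log2 ratio differed by 0.06 (exact permutation test, two-sided, p = 0.70, adjusted p = 0.80). These are ratios of transcript levels: the common partners are not reported here, and the values do not show how much of any MutS or MutL complex the cells held.

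**Figure D3:**
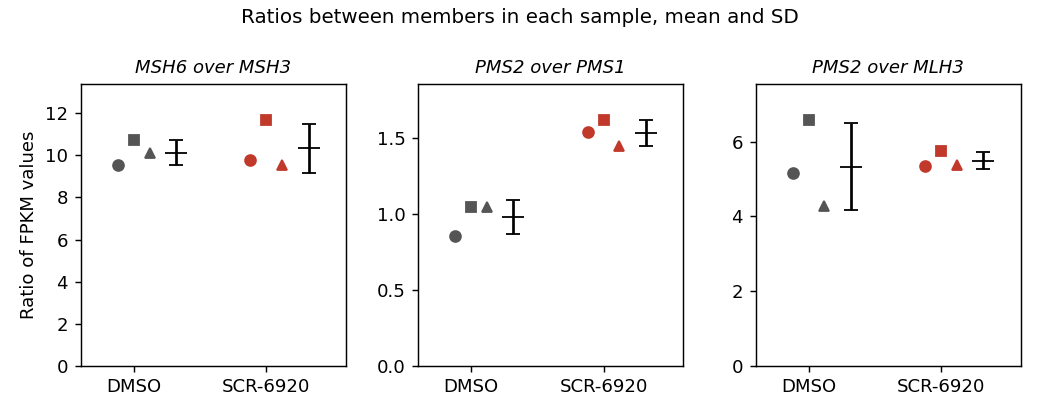
Ratios of FPKM values between members in each sample (linear axes from 0), with group mean and SD (n = 3 per group). PMS2 over PMS1 lies at 0.852 to 1.05 in DMSO samples and at 1.45 to 1.61 in SCR-6920 samples; the other ratios overlap between the groups.

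Of 16 genes of strand excision and resynthesis, which act after the MutS and MutL proteins, 10 fell, 1 rose and 5 did not pass, against 21.3% lower and 20.6% higher among all tested genes. Their median log2 fold change was -0.20, against -0.002 over all tested genes. The polymerase delta genes POLD1, its catalytic subunit, and POLD3, an accessory subunit, fell by 0.70 and 0.70 on the log2 scale (SE 0.04 and 0.05), and EXO1, the exonuclease of the pathway, fell by 0.70 ± 0.05. The clamp loader genes RFC1, RFC2, RFC4 and RFC5 fell by 0.23 to 0.45, while RFC3 had a log2 change of -0.13 (adjusted p = 0.074, edgeR). PCNA alone rose, by 0.10 ± 0.03 (adjusted p = 0.0112, edgeR). PCNA lost its call when DMSO replicate 3 (adjusted p = 0.0859) or treated replicate 1 (adjusted p = 0.1) was left out. The single-stranded DNA binding genes RPA1, RPA2 and RPA3 had log2 changes of -0.01, -0.07 and -0.12 and did not pass. PMS1, among the members, thus had a change between those of EXO1 and of the ligase gene LIG1 (-0.37 ± 0.04).

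**Figure D4:**
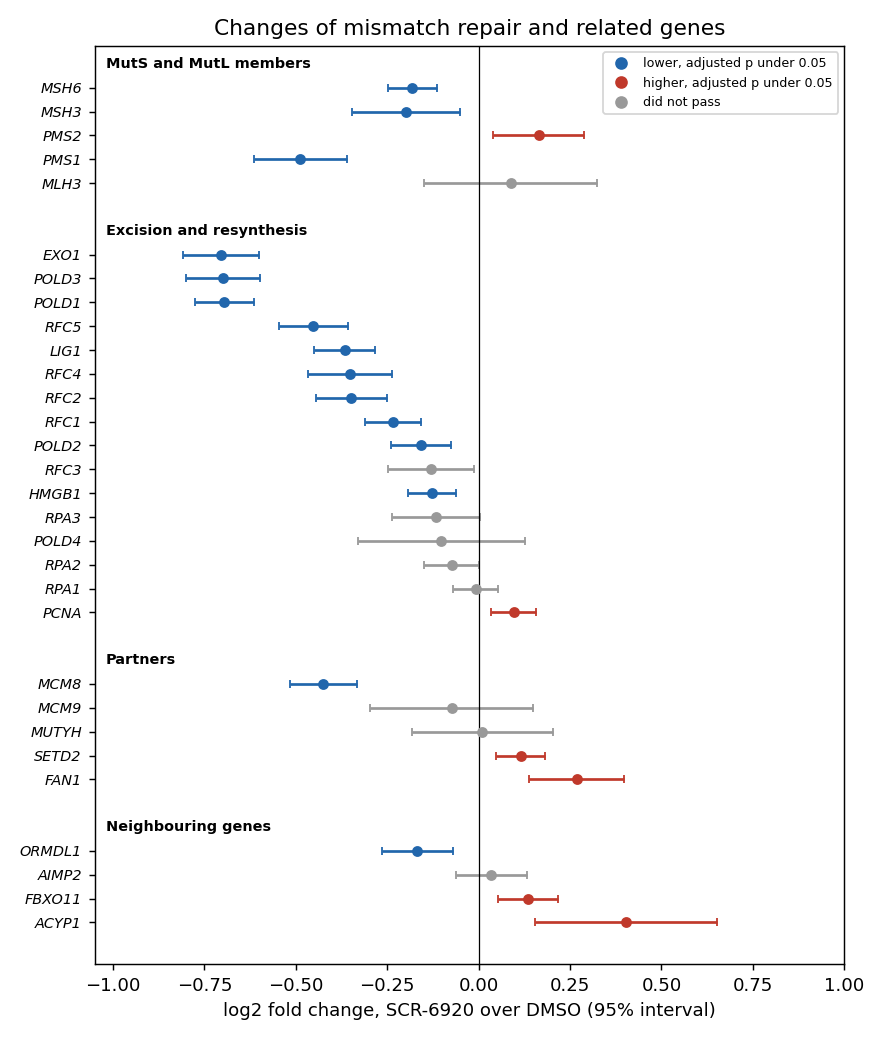
Log2 fold changes of SCR-6920 over DMSO with 95% intervals from edgeR for the members, 16 genes of excision and resynthesis, 5 partners and 4 neighbouring genes; blue is lower and red higher at an adjusted p under 0.05, grey did not pass. PMS1 is the lowest of the members at -0.49, and EXO1, POLD3 and POLD1 are lower still at -0.70.

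Partners of the members went both ways. FAN1, a nuclease that binds MutL proteins, rose by 0.27 ± 0.06 on the log2 scale (adjusted p = 0.00106, edgeR). SETD2, the methyltransferase that places the histone H3 mark read by MSH6, rose by 0.11 ± 0.03 (adjusted p = 0.00534). MCM8, a helicase subunit, fell by 0.42 ± 0.05 (adjusted p = 2.56e-09), while MCM9, which encodes the partner of MCM8, stood at -0.07 (adjusted p = 0.628). For MUTYH, a glycosylase for adenine opposite oxidised guanine, the log2 fold change was 0.01 (adjusted p = 0.946). The meiotic MutS homolog MSH4 had 5 to 17 counts per sample and a log2 fold change of -0.29 (adjusted p = 0.74). MSH5, the other meiotic homolog, had no count in 5 samples and 8 counts in SCR-6920 replicate 2, and was not tested.

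Neighbouring genes were set beside 4 of the members, since some neighbours share a start region with them and others overlap or lie further off. PMS1 and ORMDL1, a regulator of sphingolipid synthesis, start 286 bases apart on opposite strands in GENCODE 29, and ORMDL1 fell by 0.17 ± 0.05 (adjusted p = 0.00458, edgeR), against -0.49 for PMS1. PMS2 and AIMP2, a scaffold of the tRNA synthetase complex, start 120 bases apart, and AIMP2 had a log2 change of 0.03 ± 0.05 (adjusted p = 0.595) beside the 0.16 of PMS2. FBXO11, an F-box gene on the strand opposite MSH6 that starts 210263 bases from it, rose by 0.14 ± 0.04 (adjusted p = 0.00641), opposite in sign to MSH6. All distances here use the outermost start of each gene in GENCODE 29, which can differ from the RefSeq start of the promoter windows. MSH6 has 15 annotated transcripts there, so its distance depends on the start chosen. ACYP1, which starts 17951 bases from MLH3 on the same strand, rose by 0.40 ± 0.12 (adjusted p = 0.0078), a call that ended when control replicate 2 (0.0886) or treated replicate 1 (0.0585) was left out. Over all GENCODE 29 transcripts, exons of FBXO11 cover 16.2% of the 10993 exonic bases of MSH6, and those of ORMDL1 1.89% of the 5454 of PMS1. The gene lengths behind the deposited FPKM were 4771 bases for MSH6 and 5938 for PMS1, so the share of counted bases may differ. The library kit keeps strand, but whether counting used strand is not known from these sources. Reads over the overlapping exons may therefore not be told apart.

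Of 26 genes of replication origins and S phase, 21 fell, 1 rose and 4 did not pass, against 21.3% lower and 20.6% higher among all tested genes. Their median log2 fold change was -0.37, beside -0.18 over the members and -0.002 over all tested genes. RRM2, a ribonucleotide reductase subunit, fell by 0.92 ± 0.03, POLA1, of DNA polymerase alpha, by 1.05 ± 0.05 and MCM4, a helicase subunit, by 0.50 ± 0.03, and ORC6, of the origin recognition complex, rose by 0.21 ± 0.04. The part of a changed share of cells in S phase in the fall of MSH6, MSH3 and PMS1 was not tested, and in bulk RNA fewer cells expressing a gene and less RNA per cell cannot be told apart.

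The genes most like each member across the 6 samples were listed as a description, by Pearson's r of log2 CPM among 8997 other coding genes that averaged 10 CPM or more. They were NECAB3 (r = 0.998) and ACOX3 (0.997) for PMS1, COPS7A (0.996) and STK36 (0.995) for MSH6, ATP6V1E2 (0.993) and SNF8 (0.987) for MSH3, ABHD16A (0.991) and GPATCH1 (0.989) for PMS2, and SLC35A1 (0.979) and MRPS2 (0.972) for MLH3. An r above 0.95 was reached by 615 genes for PMS1, 156 for MSH6, 28 for PMS2, 21 for MSH3 and 9 for MLH3. The points share libraries and fall into 2 groups. Between members, r was 0.78 for MSH6 and PMS1, 0.72 for MSH3 and PMS1, and 0.63 for MSH6 and MSH3. For PMS2 it was -0.85 with MSH3, -0.76 with PMS1 and -0.39 with MSH6. For MLH3 it ran from -0.49, with PMS1, to 0.08, with PMS2.

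Depth was even, from 38149448 to 39749993 counts per sample. Markers of the labelled tissue were scarce: of 11 ovarian carcinoma markers in the table, KRT7 and ESR1 had no count in any sample, PAX8 had at most 2 counts and MSLN at most 1, and the summed level was 3.12 to 3.77 FPKM in DMSO and 4.47 to 5.86 FPKM in SCR-6920 samples. Of the 4 that could be tested, EPCAM (adjusted p = 0.0103, edgeR) and KRT8 (adjusted p = 0.0456, edgeR) rose, both at low counts. EPCAM had 1, 12 and 15 counts in DMSO samples and 27, 38 and 29 in SCR-6920 samples. KRT8 had 72 to 80 counts in DMSO samples and 86 to 123 in SCR-6920 samples. Leukocyte markers summed to at most 1.95 FPKM, with PTPRC at 0 and 1 of 5 tested, CD68, which fell, and endothelial markers to at most 0.009 FPKM, with VWF and CDH5 at 0. Of 5 genes listed for fibroblasts, 2, COL1A1 and COL3A1, were higher after SCR-6920. The list summed to 64.4 to 65.6 FPKM in DMSO and 68.1 to 70.1 FPKM in SCR-6920 samples. Most of this was COL3A1 alone, with 343 CPM and 62.7 FPKM on average in DMSO samples. The others were low there: COL1A1 had 1.38 FPKM, PDGFRB 0.36, LUM 0.25 and DCN 0.10. The part of these genes in the member results was not tested.

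**Figure D5:**
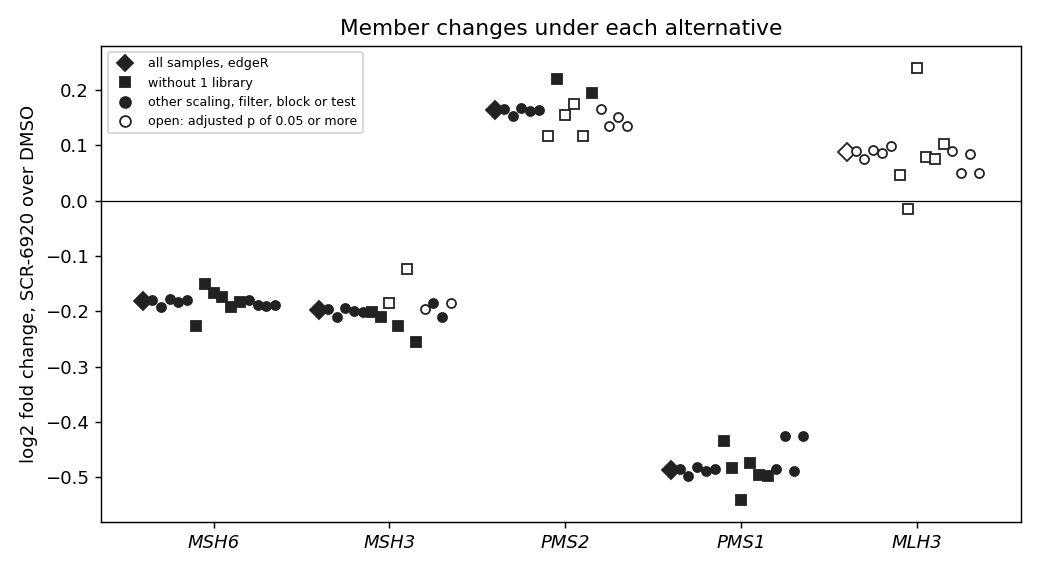
Log2 fold change of each member under all alternatives; diamonds are the values reported here, squares leave out 1 library, circles change the scaling, filter, block or test, and open symbols have an adjusted p of 0.05 or more. MSH6 and PMS1 stay below 0 and filled throughout, whereas MSH3 and PMS2 are open in some settings and MLH3 in all.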

How the data were processed

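Per the labels' protocols, RNA was purified on RNeasy columns and sequenced from stranded mRNA libraries (Illumina). HISAT2 and HTSeq are listed in the submitters' processing notes, with GRCm38, a mouse build, although the table holds human genes; versions, annotation and strand setting are not given in these sources. The authors deposited raw counts per gene and FPKM values; for 21442 genes the deposited FPKM equalled the count over the sample total and 1 gene length (relative tolerance 1e-06).

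Counts were tested with edgeR 4.0.16 under R 4.3.3 (filterByExpr, TMM scaling, robust glmQLFit and glmQLFTest, group as the only term, all 6 samples). Benjamini-Hochberg adjusted p-values over 14233 tested genes used a threshold of 0.05. Each SE is the absolute log2 fold change over the root of F. Ratios were tested by exact permutation (scipy 1.17.1). The fit was also run on simulated data with the same dispersion for every gene and far fewer changed genes than were called here. That run does not measure the error rates of the fit in these data. Alternatives used other scalings, filters, a replicate block, left-out replicates, DESeq2 1.42.0 and limma 3.58.1 on log2(FPKM + 1) and log2(FPKM + 0.1).

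The members and lists were chosen with earlier results of these data known. Genes named were the members, partners, meiotic homologs, neighbours, up to 3 genes each way with the smallest p from the excision and S phase lists, and the 2 genes most like each member; RFC, RPA and LIG1 genes and the markers were named after their values were seen. Promoter sequences came from RefSeq GRCh38.p14. Some genes of the pathway, among them common partners of the members, are not reported here, so member levels and ratios cannot be read as amounts of repair complex or as repair capacity.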

Additional observations from a re-analysis of the deposited data

How the results depend on the processing

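MSH6 and PMS1 kept their direction and their call in all 15 alternatives, with adjusted p-values of at most 0.0222 and 0.0028. MSH3 kept its direction in all 15 and its call in 11; its log2 fold change was -0.20 by DESeq2 (adjusted p = 0.052) and -0.18 by limma on log2(FPKM + 1) without a filter (0.108), and ranged from -0.25 to -0.12 without 1 replicate. PMS2 kept its direction in all 15 and its call in 7; it was 0.17 by DESeq2, 0.14 in limma fits on log2(FPKM + 1), filtered or not, and 0.15 on log2(FPKM + 0.1), and 0.12 to 0.22 without 1 replicate. MLH3 ranged from -0.014 to 0.24 without 1 replicate and passed in none. The number of members called higher was therefore 0 by DESeq2, by each limma fit and at an adjusted p under 0.01, and 0 to 1 without 1 replicate; 2 to 3 were called lower throughout. The cause was not tested.

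The log2 ratio of MSH6 to MSH3 differed by -0.067 to 0.077 and that of PMS2 to MLH3 by -0.085 to 0.22 without 1 replicate. MUTYH, which never passed, had log2 fold changes of -0.0012 with library size only, -0.0013 in limma fits on log2(FPKM + 1), filtered or not, -0.0016 on log2(FPKM + 0.1), and -0.035 to 0.065 without 1 replicate; AIMP2 ranged from -0.0046 to 0.077. Without a filter, limma called 0 genes of excision and resynthesis, 1 partner and 0 neighbours higher; without 1 replicate the numbers were 0 to 1, 2 and 1 to 2. Of 255 values for the other named genes, 238 kept their direction and side of the threshold.

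Deviations of same-numbered samples from their group means had correlations of 0.007, 0.005 and 0.038, so replicate numbers were not taken as pairs; with the replicate block 6144 genes were called against 5976, PMS1 was -0.49 (adjusted p = 4.06e-08), and no member changed its call. Counts of PMS2 and its copies could not be summed, since no copy is a row of the table analysed here. Between replicates, counts differed by more than sampling noise (chi-square per gene of 3.74 to 9.25). At these depths MLH3, with 356 to 510 counts per sample, had the largest counting error of the members. Its coefficient of variation was 18.1% among controls and 1.79% among treated samples, against 4.87% and 4.81% from counting alone.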
